A study of Mus musculus with 24 samples.

Results

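The Hox genes of the mouse lie in 4 clusters, HoxA on chromosome 6, HoxB on chromosome 11, HoxC on chromosome 15 and HoxD on chromosome 2. Their transcripts were followed in female embryonic stem (ES) cells with and without the histone methyltransferase G9a. All rows of the gene table whose symbol is Hox, a cluster letter and a paralog number were taken. These were 39 genes of 24016 in the table, 11 in HoxA, 10 in HoxB, 9 in HoxC and 9 in HoxD.

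Hox genes encode homeodomain transcription factors that give cells their position along the head to tail axis. Within a cluster the genes stand in the order in which embryos use them: the anterior genes, with low paralog numbers, are switched on first and nearest the head, and the posterior genes, with high numbers, last and nearest the tail, an arrangement called colinearity. In ES cells the clusters are held silent by Polycomb complexes, and retinoic acid, Wnt and Fgf signals open them during differentiation. G9a (gene Ehmt2) writes H3K9me2, a mark of silent chromatin, and H3K9ac, acetylation of the same histone residue, marks active promoters.

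The parental line 16.7 Tsix +/TST (labelled WT) is a female ES line that carries alleles of 2 mouse subspecies, mus and cas, and G9a was deleted in it to give the knockout (KO), so both lines share the Tsix allele. Undifferentiated cells were day 0, and day 10 cells had been kept without LIF for 4 days in suspension and 6 days on gelatinized plates. Total RNA depleted of ribosomal RNA was sequenced in 3 libraries for each line and day, and H3K9ac was mapped in 1 sample for each. The number of knockout clones is not given in the sources used here, and p-values measure only the spread between these libraries, which may be technical.

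Ehmt2 itself held 986.8, 1102 and 1375 scaled reads in WT at day 0 against 557, 441 and 375 in KO, and 1297, 1359 and 719 in WT at day 10 against 499.8, 758 and 628 in KO. The unit is reads per gene that the authors scaled to one total of about 8689197 per library. Behind these stood 2081129 to 4220140 recovered reads in 9 libraries and 21087157 to 30527844 in the other 3, which are WT replicate 3 and KO replicates 2 and 3 of day 0, so that 1 read was worth 0.285 to 4.18 scaled reads. The ribosomal row Rn45s made 0.115 to 0.129% of the reads in these 3 deep libraries and 14.8 to 25.1% in the other 9, so the deep libraries differ in more than depth. The Hox genes together held 94 to 2917 recovered reads per library, and many single values rest on a few reads. Summed markers of pluripotent cells (8 genes) were 24976 to 40758 scaled reads at day 0 and 3121 to 11547 at day 10. The 16 fibroblast markers summed to 8619 in WT and 3783 in KO replicate 1 of day 0 against 1118 to 1371 in the other 4 libraries of that day, and 4 Y-linked genes, which a female line lacks, held 201.6 and 80.9 scaled reads there.

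Hox transcripts were scarce and higher in KO than in WT on both days. The 39 genes together held 332, 664 and 640.4 scaled reads in the 3 WT libraries of day 0 and 803, 949.9 and 904 in KO. At day 10 they held 596, 980.1 and 1038 in WT and 1257, 1873 and 2141 in KO. On each day every KO library lay above every WT library. In KO replicate 1 of day 0 the 3 genes of paralog number 3 held 302 scaled reads. They held 94.8 and 106 in KO replicates 2 and 3 of that day, and 92.0, 171 and 72.3 in WT. KO replicate 1 also held the most olfactory and vomeronasal receptor reads of day 0 (1072 CPM), and their part in its Hox sum was not tested. As a share of all reads other than the ribosomal row Rn45s, Hox reads made 0.00467 to 0.00943% of the WT libraries and 0.0104 to 0.0118% of the KO libraries at day 0, while at day 10 WT had 0.00856 to 0.0140% and KO 0.0193 to 0.0308%, again with no overlap. These sums carry no test, and in bulk RNA fewer cells with Hox transcripts cannot be told apart from less RNA per cell.

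**Figure D1:**
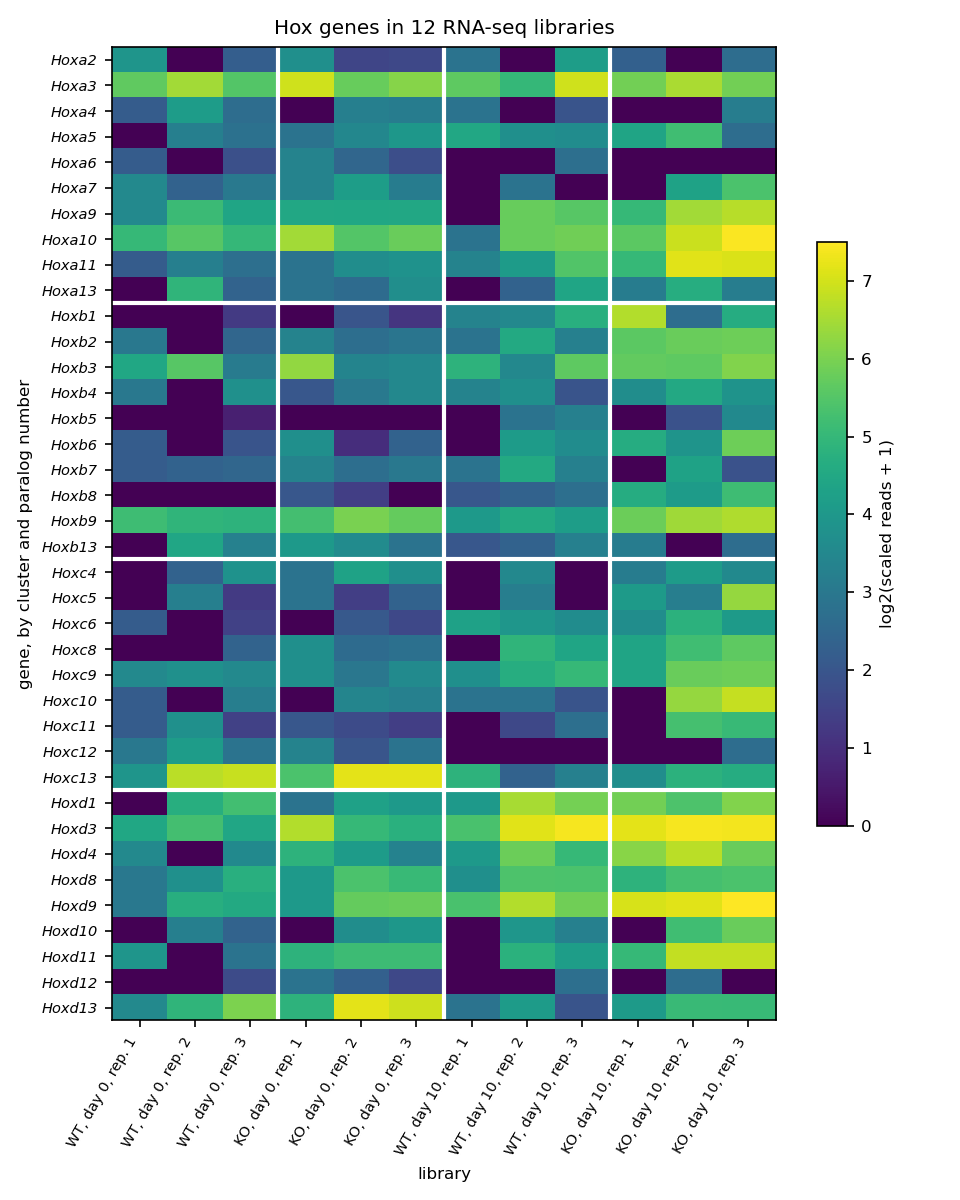
Each row is a Hox gene, ordered by cluster and paralog number, and each column a library; colour gives log2 of scaled reads plus 1. Hoxa3 is bright on both days, and Hoxd3 and Hoxd9 are brighter at day 10 than at day 0 in both lines. Values are not divided by span: Hoxa3 spans 44005 bases, and its group means were 1.37 to 1.87 scaled reads per kb. Hoxc13 and Hoxd13 reach their own highest values at day 0, and posterior genes are bright in KO replicates 2 and 3 of day 10.

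The summed reads of each cluster were set side by side. The 9 HoxD genes summed to 70.7, 138 and 192 scaled reads in WT at day 0 and 227, 356 and 311 in KO, and to 129.7, 488 and 391 in WT at day 10 against 484, 679 and 704 in KO. HoxB, with 10 genes, summed at day 0 to 77.8, 100.2 and 70.6 (WT) and 168, 107 and 97.7 (KO), and at day 10 to 80.3, 132 and 147 (WT) and 321, 268 and 369 (KO). HoxD was higher in every KO library at day 0, and so was HoxA (11 genes), at 141, 267 and 213 in WT and 318, 289 and 299 in KO. HoxB and HoxC overlapped at that day. Of the KO sums at day 0, Hoxd3 held 99.6, 31.9 and 26.4 scaled reads of HoxD, and Hoxa3 held 125, 53.4 and 69.2 of HoxA, so both were highest in replicate 1. The KO libraries of day 10 stood above the 3 other groups in HoxB without overlap, and in HoxD 1 KO library (484) lay just under the highest WT one (488). HoxA reached 261 to 420 scaled reads in WT and 365 to 682 in KO at day 10, and HoxC (9 genes) 64.9 to 98.8 in WT and 87.3 to 386 in KO; both overlapped at day 10.

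**Figure D2:**
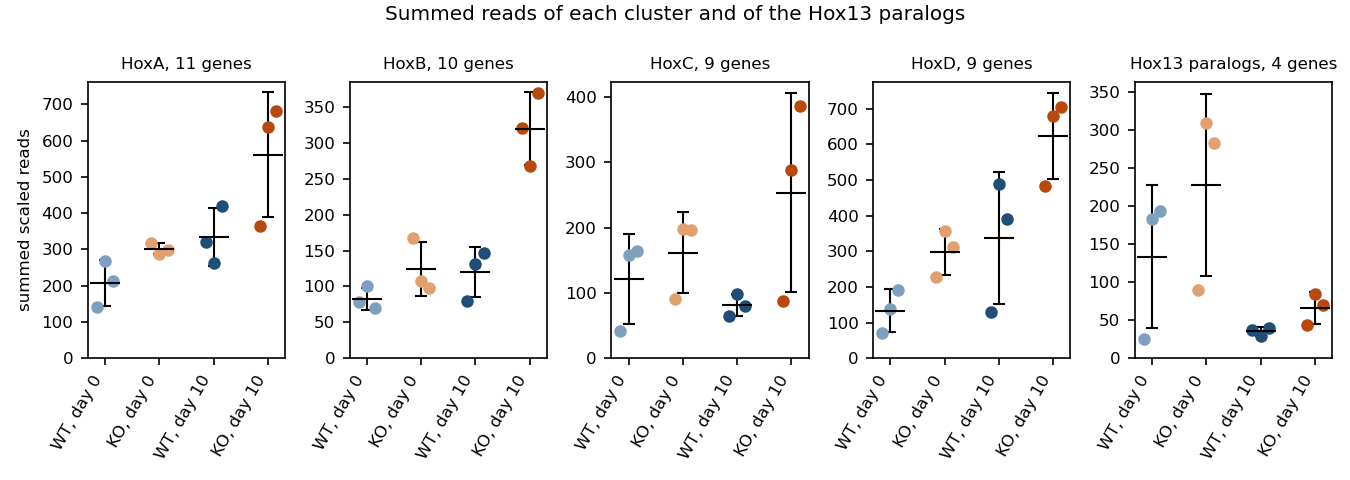
Points are libraries, horizontal bars the mean of 3 libraries and whiskers 1 SD, for the summed scaled reads of each cluster and of the 4 Hox13 paralogs. In HoxB the KO libraries of day 10 (268 to 369) stand clear of the WT ones (80.3 to 147), and the Hox13 sum is lower at day 10 than in most day 0 libraries.

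Which genes led was compared per kilobase of genomic span, over which reads were counted. At day 0 Hoxd13 and Hoxc13, genes of the tail end and the digits or skin, were among the highest in WT, at 10.5 ± 8.15 and 10.2 ± 7.29 scaled reads per kb (SD, n = 3). In KO at day 0 Hoxd13 led at 29.9 ± 18.9 per kb, and Hoxd9 stood at 16.7 ± 8.96. At day 10 Hoxd9 and Hoxd1 were among the highest in WT, at 26.8 ± 12.3 and 25.7 ± 17.5 per kb. These pairs overlapped between libraries. In KO at day 10 Hoxd9 led at 61.9 ± 10.7 per kb, and all 3 of its libraries lay above those of Hoxa11, a gene of the forearm and uterus, at 27.8 ± 16.7. Without division by span, Hoxd3, whose span is longer, had a higher mean than Hoxd9 at day 10. The means were 117 against 65.5 scaled reads in WT and 159 against 151 in KO. The highest member of HoxB per kb was Hoxb9 at day 0 (5.84 in WT, 9.64 in KO) and, at day 10, Hoxb1 in WT (6.07) and Hoxb2 in KO (22.2). In HoxC it was Hoxc13 at day 0 (10.2 and 14.4 per kb) and, at day 10, Hoxc6 in WT (6.39) and Hoxc10 in KO (12.6, with 0, 79.4 and 113 scaled reads in the 3 libraries).

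In the knockout, 3 Hox genes rose from day 0 to day 10 by limma with Benjamini-Hochberg adjustment over 20624 genes, and none fell. All 39 Hox genes passed the filter on low values. Of all genes tested 2.43% rose and 6.46% fell in this comparison. The 3 genes were Hoxb1 and Hoxb8 of HoxB and Hoxa11 of HoxA.

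Hoxb1, which marks rhombomere 4 of the hindbrain and answers directly to retinoic acid, held 0, 2.93 and 1.24 scaled reads in KO at day 0 and 99.2, 5.48 and 24.3 at day 10. The groups did not overlap, but the day 10 values spanned a wide range, with replicate 1 the highest. Hoxb1 rose by 3.62 on the log2(value + 1) scale (SE 1.07, limma adjusted p = 0.0489). Hoxb8, a trunk gene also used in blood progenitors, held 3.11, 1.63 and 0 scaled reads at day 0 and 23.8, 16.4 and 35.1 at day 10, with no overlap, and rose by 3.50 (SE 0.829, limma adjusted p = 0.0260).

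Hoxa11 held 6.23, 11.7 and 13.2 scaled reads at day 0 and 31.7, 142 and 135 at day 10. All 3 day 10 libraries were above day 0, and replicates 2 and 3 held most of the reads. It rose by 2.98 (SE 0.811, limma adjusted p = 0.0394). Its antisense transcript Hoxa11os, whose span overlaps 567 bases of Hoxa11 on the opposite strand, held 9.34, 6.84 and 8.24 scaled reads at day 0 and 27.8, 145 and 135 at day 10, a log2 change of 3.19 (limma adjusted p = 0.040). The strand of the counting is not stated, so reads in the overlap cannot be told apart between the gene and its antisense partner.

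These 3 calls rest on few libraries. Left out singly, KO replicate 2 or 3 of day 0 or KO replicate 2 or 3 of day 10 left 0 Hox calls. KO replicate 1 of day 10 left 1, and without WT replicate 3 of day 10 there were 7 higher and 1 lower. Calls over all genes moved too, from 502 higher and 1332 lower of 20624 in the main fit. They were 113 and 86 of 20571 without KO replicate 3 of day 10, and 739 and 3757 of 20290 without WT replicate 3 of day 10. Over all alternatives the limma, edgeR or DESeq2 adjusted p ran from 0.00199 to 0.157 for Hoxb1, 0.00514 to 0.276 for Hoxb8 and 3.12e-05 to 0.148 for Hoxa11. The call of Hoxb1 was lost in 18 alternatives and held in 7, that of Hoxb8 was lost in 8 and held in 17, and that of Hoxa11 was lost in 6 and held in 20.

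The promoters of these 3 genes and of Hoxd13, the leading gene per kb of KO at day 0, are shown because they differ in their density of CG dinucleotides, which are in capitals. They are RefSeq windows from 250 bases before to 50 after the gene start, on GRCm38.p6 and not on the build of the data, printed along the strand of the gene. Hoxb1 is chr11:96365508-96365807 (plus strand), Hoxb8 is chr11:96281655-96281954 (plus), Hoxa11 is chr6:52245761-52246060 (minus) and Hoxd13 is chr2:74667975-74668274 (plus).
Hoxb1: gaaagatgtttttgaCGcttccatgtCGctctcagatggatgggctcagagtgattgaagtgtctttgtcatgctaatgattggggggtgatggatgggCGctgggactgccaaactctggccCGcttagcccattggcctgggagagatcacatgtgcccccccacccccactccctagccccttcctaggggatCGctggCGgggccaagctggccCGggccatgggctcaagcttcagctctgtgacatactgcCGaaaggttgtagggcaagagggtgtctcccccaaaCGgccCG
Hoxb8: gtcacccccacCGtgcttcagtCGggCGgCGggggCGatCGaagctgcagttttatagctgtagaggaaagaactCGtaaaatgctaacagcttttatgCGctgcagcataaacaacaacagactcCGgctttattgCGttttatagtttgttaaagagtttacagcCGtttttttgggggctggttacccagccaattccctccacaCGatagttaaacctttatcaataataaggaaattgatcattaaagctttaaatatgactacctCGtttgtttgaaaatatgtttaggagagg
Hoxa11: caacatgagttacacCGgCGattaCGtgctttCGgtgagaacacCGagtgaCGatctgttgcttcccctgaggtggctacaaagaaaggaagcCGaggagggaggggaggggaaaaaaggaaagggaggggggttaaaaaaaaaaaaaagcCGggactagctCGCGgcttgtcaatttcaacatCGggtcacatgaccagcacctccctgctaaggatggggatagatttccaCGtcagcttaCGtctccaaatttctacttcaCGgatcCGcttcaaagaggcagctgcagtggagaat
Hoxd13: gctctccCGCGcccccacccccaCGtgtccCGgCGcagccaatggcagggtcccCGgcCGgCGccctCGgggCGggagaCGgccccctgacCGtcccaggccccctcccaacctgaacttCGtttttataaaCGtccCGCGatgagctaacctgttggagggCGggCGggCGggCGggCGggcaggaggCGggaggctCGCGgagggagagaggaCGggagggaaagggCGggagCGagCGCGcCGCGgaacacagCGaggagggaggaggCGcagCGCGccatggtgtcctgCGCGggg
They held 10, 13, 15 and 37 CG dinucleotides in turn, and 5.58% of all 32851 windows held as many as Hoxd13. Windows were found for 22 of the 39 Hox genes (24 windows), with a median of 14.5 CG dinucleotides against 7 over all windows. The letters TTTATG, a site of caudal (Cdx) factors, were searched on both strands and stood at 2 places in the Hoxb8 window, neither overlapping its 2 matches of the TATA box letters TATAAA. That caudal motif was present in 5 of the 24 Hox windows (20.8%) and in 11.9% of all windows, and AGGTCA, a single site of retinoic acid receptors, was present in 7 of 24 (29.2%) and in 16.3% of all windows.

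Other Hox genes moved with the same sign in KO without passing the adjusted threshold. At an unadjusted p under 0.05, 9 of the 39 were higher at day 10 (5.81% of all genes) and 2 lower (26.6%). The 6 higher genes besides those above were Hoxb2, Hoxc6, Hoxc9, Hoxd3, Hoxd4 and Hoxd9, with log2 changes of 1.83 to 2.97. Hoxd9 held 15.6, 52.1 and 54.8 scaled reads at day 0 and 131, 142 and 181 at day 10 (log2 change 2.04, SE 0.632, limma adjusted p = 0.0571). Its groups did not overlap. Day 10 libraries lay wholly above day 0 for 16 Hox genes (8.93% of all genes) and wholly below for 2, Hoxa6 and Hoxc13 (36.5% of all genes).

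In WT no Hox gene passed limma's adjusted threshold between the days, while 2.02% of all genes rose and 2.4% fell. By edgeR 0 of the 18 Hox genes it kept were called, among 506 higher and 542 lower genes of 14884. DESeq2 called 5 of 39, all higher, among 1038 higher and 802 lower genes of 22589. At an unadjusted p under 0.05, 7 Hox genes were higher at day 10 (among them Hoxb1, Hoxb8, Hoxc6, Hoxd3, Hoxd4 and Hoxd9, with 6.21% of all genes higher) and 3 lower (Hoxc12, Hoxc13 and Hoxd13, with 10.6% lower). In WT Hoxd9 held 7.07, 25.1 and 22.5 scaled reads at day 0 and 40.1, 98.8 and 57.5 at day 10. Its groups did not overlap. The log2 change was 1.87 (SE 0.632, limma adjusted p = 0.127), and with a depth term in the fit it was 2.11 (limma adjusted p = 0.0337).

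Hoxb8 was at 0 in all 3 WT libraries of day 0, including the deep one, and held 3.09, 4.12 and 5.75 scaled reads at day 10. These are 1 or 2 reads per library, so that no fold is given. At day 10, 10 Hox genes lay wholly above day 0 in WT (6.63% of all genes) and 2, Hoxb9 and Hoxc12, wholly below (11.8%). Hoxb9, a trunk gene of the lower thorax, went the other way in WT, from 35.4, 29.2 and 27.6 scaled reads at day 0 to 15.4, 22.7 and 17.3 at day 10, all below day 0 (log2 change -0.72, limma adjusted p = 0.535).

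The day change was larger for anterior than for posterior genes by their medians. In WT the median log2 change was 1.75 over the 8 anterior genes (paralogs 1 to 3), 1.21 over the 15 central genes (4 to 8) and -0.11 over the 16 posterior genes (9 to 13); over all genes tested it was -0.20. In KO these medians were 1.63, 1.17 and 0.92 against -0.68 over all genes. Of the anterior genes 7 of 8 had a change above 0 in WT and 6 of 8 in KO; of the posterior genes 7 of 16 in WT and 11 of 16 in KO. Over all genes 40.1% were above 0 in WT and 24.5% in KO.

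HoxD showed the order most clearly. Its log2 changes in WT ran from 2.19, 1.92 and 2.60 at Hoxd1, Hoxd3 and Hoxd4, through 1.00 and 1.87 at Hoxd8 and Hoxd9, to 0.53, 0.73, 0.35 and -1.85 at Hoxd10 to Hoxd13. Spearman's rho between change and paralog number was -0.92 in WT and -0.78 in KO over the 9 HoxD genes, -0.57 and -0.58 in HoxC, -0.49 and -0.61 in HoxB, and -0.27 and 0.36 in HoxA. These are correlations across genes of 1 cluster that share libraries, so they are given as a description with no p. Hoxd4 lies inside the span of Hoxd3, and Hoxa4, Hoxa5 and Hoxa6 lie inside that of Hoxa3, so such genes may share reads, also in the cluster sums.

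**Figure D3:**
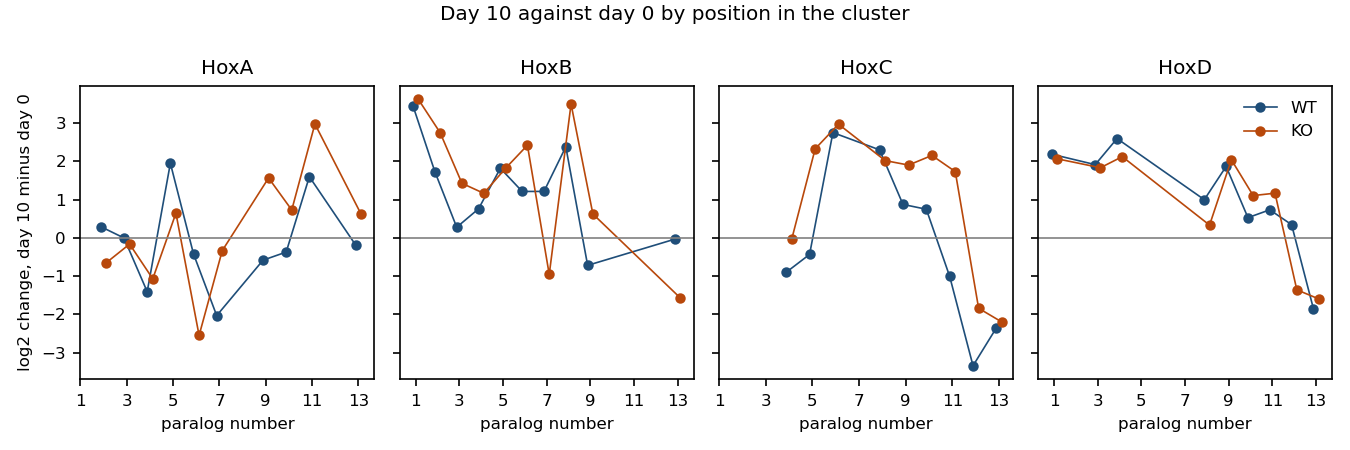
The log2 change from day 0 to day 10 of Hox genes against their paralog number, in WT (blue) and KO (orange), 1 panel per cluster. In HoxD the points descend from about 2 at Hoxd1 to below 0 at Hoxd13 in both lines; in HoxA they do not, and the KO points rise to 2.98 at Hoxa11.

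The posterior genes Hoxc13 and Hoxd13 had many of the Hox reads at day 0. Hoxc13 held 14.2, 104 and 117 scaled reads in WT and 40.5, 147 and 145 in KO at day 0, and 27.8, 4.12 and 8.62 in WT and 11.9, 27.4 and 24.3 in KO at day 10. Hoxd13 held 10.6, 29.2 and 63.5 in WT and 28.02, 146 and 121 in KO at day 0, and 6.18, 16.5 and 2.87 in WT and 15.9, 32.9 and 32.4 in KO at day 10. Together the 4 Hox13 paralogs made 24.5% (WT) and 25.8% (KO) of Hox reads at day 0, and 4.06% (WT) and 3.77% (KO) at day 10.

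Depth, and with it the share of Rn45s reads, moved with this pattern, and a depth term cannot tell depth from that share. The 3 highest libraries for Hoxd13 (63.5, 146 and 121) and for Hoxc13 (117, 147 and 145) were the 3 deep ones, which are all of day 0. The log2 change of Hoxc13 was -2.35 in WT and -2.20 in KO (limma adjusted p = 0.181 and 0.111), and with a depth term in the fit it was -2.04 and -1.32. That of Hoxd13 was -1.85 in WT and -1.59 in KO (limma adjusted p = 0.293 and 0.204), and with a depth term -1.42 and -0.36. Within the 9 libraries of lower depth the WT changes were -1.83 for Hoxc13 and -1.25 for Hoxd13. The KO changes there, -0.98 and -0.12, rest on 1 day 0 library, KO replicate 1, which also holds the fibroblast and Y-linked reads given above and is assumed to vary like the other groups.

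Between the lines at day 10, no Hox gene passed limma's adjusted threshold, and no gene of the 20624 did (0.0%); edgeR called 0 Hox genes of the 18 it kept, and DESeq2 called 1, Hoxb9, among 119 higher and 429 lower genes of 22589. At an unadjusted p under 0.05, 7 Hox genes were higher in KO (2.06% of all genes were) and none was lower (9.88% of all genes were). The median log2 difference of the 39 Hox genes was 1.16 against -0.26 over all genes, with 32 of 39 above 0 against 34.9% of all genes. Under the other scalings tried 33 of 39 were above 0 (medians 1.30 with TMM and 1.24 with RLE).

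Hoxb9 gave the lowest p of the 39. It held 15.4, 22.7 and 17.3 scaled reads in WT and 55.5, 84.9 and 97.1 in KO at day 10. The lines did not overlap, and they did not overlap at day 0 either, where WT held 35.4, 29.2 and 27.6 against 37.4, 62.9 and 51.9 for KO. The log2 difference was 2.02 at day 10 (SE 0.502, unadjusted p = 0.00122, limma adjusted p = 0.204) and 0.68 at day 0 (limma adjusted p = 0.993). In the authors' deposited table the log2 ratio at day 10 was 2.18 with a p-value of 0.00393, and DESeq2 on the recovered reads gave 2.17 (adjusted p = 0.0115).

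Of the 10 HoxB genes 7 were above 0 and 3 below, Hoxb7 at -1.48, Hoxb13 at -0.61 and Hoxb5 at -0.22 on the log2 scale. Hoxb2, a hindbrain gene, held 6.18, 22.7 and 8.62 scaled reads in WT and 47.6, 54.8 and 56.6 in KO at day 10, without overlap (log2 difference 2.19, SE 0.899, limma adjusted p = 0.361). Hoxb8 held 3.09, 4.12 and 5.75 in WT and 23.8, 16.4 and 35.1 in KO, again without overlap (2.26, SE 0.829, limma adjusted p = 0.302). Hoxb3 also did not overlap, at 27.8, 10.3 and 48.9 in WT against 51.6, 49.3 and 67.4 in KO.

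Of the posterior genes, Hoxd11, whose row is a noncoding RefSeq record of the gene, held 0, 26.8 and 17.3 scaled reads in WT and 31.7, 112 and 111 in KO at day 10 (log2 difference 3.22, SE 1.23, limma adjusted p = 0.323). At day 0 it held 14.2, 0 and 6.26 in WT and 28.02, 34.2 and 34.6 in KO (2.79, SE 1.23, limma adjusted p = 0.993). KO libraries lay above all WT libraries on both days. Hoxa11 held 9.26, 16.5 and 43.1 in WT and 31.7, 142 and 135 in KO at day 10 (2.11, SE 0.811, limma adjusted p = 0.323), and Hoxa10, a uterine and limb gene, 6.18, 53.5 and 57.5 in WT and 47.6, 118 and 175 in KO (1.82, SE 0.756, limma adjusted p = 0.371). In both, KO replicate 1 lay below at least 1 WT library.

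Hoxc5, a neck and thorax gene, held 0, 8.24 and 0 scaled reads in WT and 15.9, 8.21 and 78.2 in KO at day 10 (log2 difference 3.46, SE 1.19, limma adjusted p = 0.271), so 1 KO library carried most of the reads and the groups overlapped. Exact permutation of 3 libraries against 3 cannot go below p = 0.1, which each gene without overlap reached. Such genes numbered 6 of 39 higher in KO (Hoxb2, Hoxb3, Hoxb8, Hoxb9, Hoxd9 and Hoxd11; 5.54% of all genes) and 0 lower (12.6%).

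**Figure D4:**
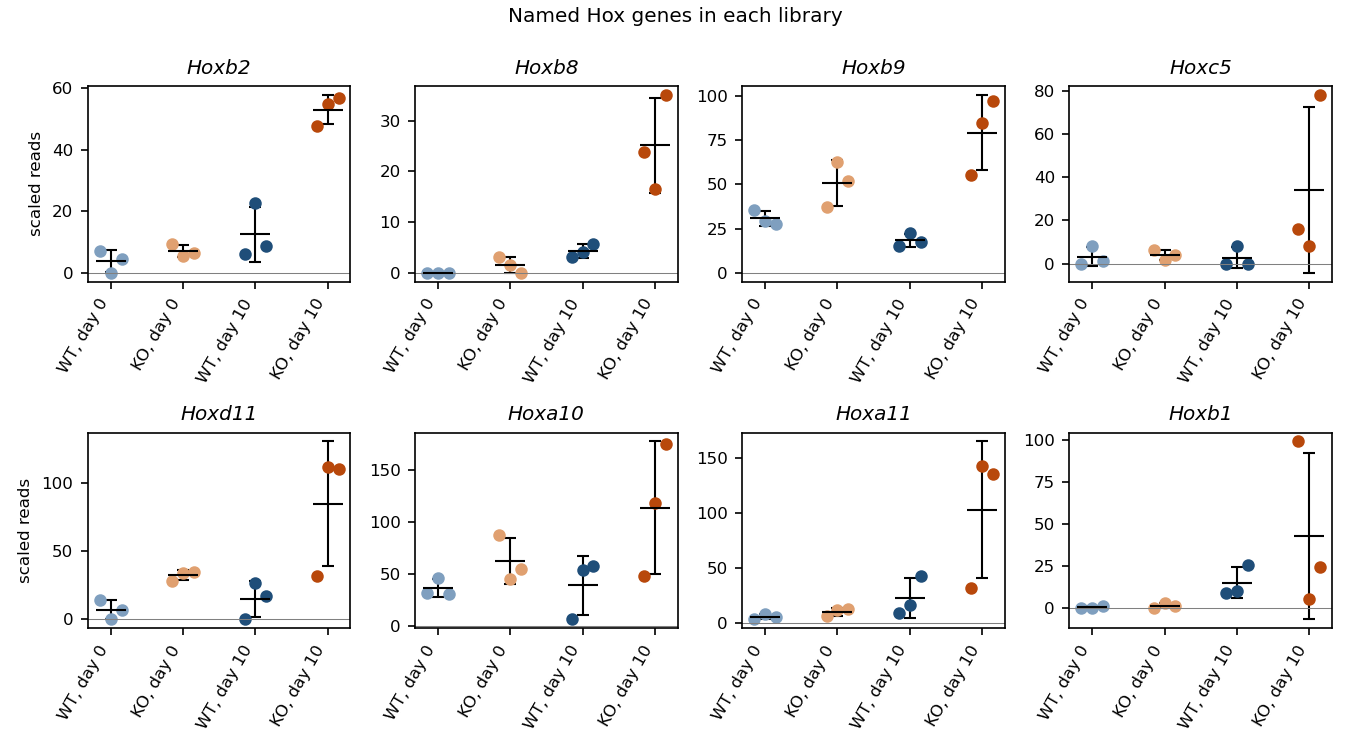
Scaled reads of 8 Hox genes in each library (points), with the mean (bar) and 1 SD (whiskers) of 3 libraries for each line and day. Hoxb2, Hoxb8, Hoxb9 and Hoxd11 show all 3 KO libraries of day 10 above all WT libraries of that day, while Hoxb1 and Hoxc5 owe their KO mean to 1 high library (99.2 and 78.2).

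The day 10 difference varied with single libraries. Replicate 1 of each line was low in posterior genes: paralogs 9 to 13 summed to 127, 348 and 333 scaled reads in WT and 393, 986 and 1133 in KO. Fibroblast markers were lowest in the same libraries, summing to 1433, 6167 and 3811 in WT and 2916, 8189 and 8940 in KO, with none of the 16 at 0 in all libraries, and their part in the Hox values was not tested. The 8 pluripotent markers summed to 6466, 6074 and 3121 in WT and 11547, 10681 and 8023 in KO at day 10, without overlap, and all 8 had a log2 difference above 0 (median 1.03); none is at 0 in all libraries, and their part was not tested either. Without KO replicate 3 the count of 7 Hox genes at an unadjusted p under 0.05 was 1, without KO replicate 2 or WT replicate 1 it was 3, and without WT replicate 2 it was 13. It was 10 without KO replicate 1 of day 0 and WT replicate 3 of day 10 together, which hold the most reads of olfactory and vomeronasal receptor genes (1072 and 1093 CPM, counted without Rn45s, against 31.1 to 377 CPM elsewhere).

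At day 0 the median Hox difference between the lines was smaller than at day 10, though the interaction term, given below, called 0 Hox genes. Of 39 Hox genes 34 were above 0 (62.5% of all genes were), with a median log2 difference of 0.70 against 0.17 over all genes, and limma, edgeR and DESeq2 called none (limma called 0.0% of all genes). Hoxd11, given above, was the only one at an unadjusted p under 0.05 (1.99% of all genes were higher). That count moved with single libraries of day 0: it was 5 without WT replicate 3, 3 without KO replicate 1, 2 without WT replicate 1, and 0 without WT replicate 2 or KO replicate 2 or 3. It was also 2 without WT replicate 1 of day 10, and 0 without KO replicate 2 or 3 of day 10 and with a depth term. The count over all genes moved too, from 411 higher of 20624 in the main fit. Of day 0, it was 974 of 20507 without WT replicate 3 and 1346 of 20341 without KO replicate 1. Without WT replicate 1 of that day it was 454 of 20503, and without WT replicate 2 it was 192 of 20531. KO libraries lay wholly above WT for Hoxb7, Hoxb9, Hoxc8 and Hoxd11 (5.5% of all genes) and wholly below for none (4.98%). All 9 HoxD genes were above 0, with log2 differences of 0.42 to 2.79.

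The day change itself was compared between the lines by the interaction term. No Hox gene had an unadjusted p under 0.05 in limma, where 0.853% of all genes were higher and 7.85% lower. None of the 20624 genes passed limma's adjusted threshold (0.0%). By edgeR 1 Hox gene of 18 was higher at an unadjusted p under 0.05, among 256 higher and 1301 lower genes of 14884. By DESeq2 2 were higher, among 351 higher and 2411 lower genes of 22589. Neither tool called a Hox gene after adjustment. The median difference over the Hox genes was 0.34, with 26 of 39 above 0, against -0.36 and 33.9% over all genes. Leaving out WT replicate 1 of day 10 turned that median to -0.0762.

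Antisense and noncoding RNAs of the clusters were mostly near 0. Of 12 listed rows 7 were tested, and Hoxa11os was the only one called, in the KO day change. Haglr, transcribed between Hoxd1 and Hoxd3, held 8.35 to 33.3 scaled reads in the 6 day 0 libraries and 18.5 to 75.4 at day 10. Hotair, a HoxC transcript, stayed at 2.87 or below in every library.

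The hairpin row of Mir196a-1, which lies beside Hoxb9, held 0, 0 and 2.87 scaled reads in WT and 3.97, 5.48 and 13.5 in KO at day 10, which is 1 to 5 reads. Those of Mir10a, Mir10b and Mir196b were at 0 in all libraries. Mature miR-196 directs cleavage of Hoxb8 mRNA, and the forms from the HoxB or HoxC copies and from HoxA share their seed, bases 2 to 8, in capitals in the RefSeq sequences below.
miR-196a-5p: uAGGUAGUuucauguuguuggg
miR-196b-5p: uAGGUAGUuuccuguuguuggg
The RNA libraries do not show mature miRNAs, so no level is given for them.

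Lists of regulators and neighbours of the Hox genes were counted over the days, where limma called 2.02% of all genes higher and 2.4% lower in WT and 2.43% and 6.46% in KO. Between the lines limma called 0 of all 20624 genes at either day, so the lists' 0 calls there say nothing about them. Of the ParaHox genes (Cdx, Gsx and Pdx1) and Evx genes (8 tested together), 2 rose in both lines. Cdx2, a caudal factor that acts on posterior Hox genes and also marks trophoblast, went from a mean of 0.38 to 255 scaled reads in WT (log2 change 7.41) and from 9.21 to 352 in KO (5.68), and Evx1, which flanks HoxA, from 12.1 to 269 in WT (4.14) and 25.9 to 413 in KO (3.93). Of the posterior axis signals (16 tested), 5 rose and 1 fell in WT and 6 rose and 1 fell in KO. T (brachyury), of the primitive streak, rose from 11.8 to 416 in WT (5.42) and from 8.38 to 419 in KO (5.51), and Fgf4 fell from 2839 to 339 in WT (-3.16) and from 2550 to 810 in KO (-1.64).

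Of the retinoic acid pathway (18 tested), 2 rose and 1 fell in WT and 0 were called in KO, counts too small to set apart from the shares over all genes given above. Cyp26a1, which degrades retinoic acid, went from 3.61 to 69.96 scaled reads in WT (log2 change 4.81) and from 8.71 to 74.4 in KO (3.23, limma adjusted p = 0.059). Whether the lines differ was tested by the interaction term, which called 0 genes.

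Of the Polycomb and trithorax genes (31 tested), 1 rose and 3 fell in WT and 3 rose and 0 fell in KO. Phc2, a Polycomb subunit, rose from 444 to 954 in WT (1.11) and from 381 to 1095 in KO (1.50), and Kdm6b, an H3K27 demethylase, from 293 to 1747 in KO (3.13). Of the 20 genes that flank the clusters 0 rose and 2 fell in each line, Calcoco2 and Ttll6, both beside HoxB. Calcoco2 fell from 851 to 89.3 in WT (-3.04) and from 1612 to 249 in KO (-2.57). Their median log2 change was -0.50 in WT and -0.70 in KO, where the Hox medians were 0.73 and 1.17. Of the 32 other homeobox genes 3 rose and 2 fell in WT, and 3 rose and 3 fell in KO.

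The other cell type lists were counted too. Of the pluripotent markers (8 tested), 7 fell in WT and 5 in KO; of the mesoderm markers (9) 2 rose and 1 fell in WT and 3 rose in KO; of the trophoblast markers (7) 4 rose in each line. Of the fibroblast markers (16) 1 fell in WT, and 1 rose and 2 fell in KO; 1 of 10 neural markers fell in each line, and 0 of 8 primitive and visceral endoderm markers and 0 of 4 Y-linked genes were called in either.

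Over the 12 libraries the genes outside the clusters whose log2 level was most like that of the summed Hox reads, among 14723 genes with a mean above 20, were Pitx1, a hindlimb factor (Pearson's r 0.94), Ndn (0.91), Twist1, a mesenchymal factor and 1 of the fibroblast markers (0.90), Plekhj1 (0.90) and Wdr4 (0.89). These values share depth and day and carry no p. Among Hox genes the median r was 0.39 over 42 pairs of the same paralog number in different clusters, 0.23 over 569 pairs of different clusters, and 0.38, 0.26, 0.25 and 0.03 within HoxD, HoxB, HoxC and HoxA.

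H3K9ac peaks over the clusters were weak. With the clusters taken from first to last Hox gene and 5 kb beyond, the lists of day 0 held 52 peaks for WT and 20 for KO, and those of day 10 held 32 for WT and 34 for KO. Their median fold enrichment, as the authors' peak lists give it, was 2.40 to 2.58, close to 2.41 to 2.61 over all peaks. The lists hold peaks down to a -log10 p of about 2. Of the Hox peaks, 1 in KO at day 0 and 1 in KO at day 10 reached a -log10 q of 2, and 0 in WT on either day. Over all peaks, 2.88% in WT and 7.77% in KO reached it at day 0, and 17.9% in WT and 12.4% in KO at day 10. A peak lay within 1 kb of 23 of 39 Hox starts in WT at day 0 (59.0%) and 8 in KO (20.5%), and of 10 (25.6%) and 14 (35.9%) at day 10. Over all 23952 starts the shares were 49.9%, 40.1%, 51.0% and 52.3%.

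With 1 sample per line and day these differences have no replicate check, and the lists differ in length (63050, 37704, 37310 and 51501 peaks in the same order). The WT samples of both days bear the number 1 and the KO samples another number, so line and number cannot be told apart. No Hox start carried a peak with a -log10 q of at least 5, which 0.276%, 1.60%, 9.67% and 10.7% of all starts did. Of the flanking genes, 13, 16, 17 and 17 of 20 had a start peak.

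A peak between Hoxb13 and Hoxb9 was listed in all 4 samples, 18012 to 19502 bases before the Hoxb9 start. In KO at day 0 it spanned chr11:96112608-96113142 (mm9) with a fold of 3.77 and a -log10 q of 2.26, the only peak of the clusters with a -log10 q of at least 2 at day 0. A second stretch with peaks in all 4 samples lay at Hoxb7, within 0 to 1820 bases of its start, at a -log10 q of 0.0432 to 0.758. At Hoxd9, the leading gene per kb of KO at day 10, the start was covered by peaks in WT at day 0 (1137 bases) and KO at day 10 (2088 bases, fold 3.16). A KO peak of day 0 began 206 bases downstream of the Hoxd9 start, and at Hoxd13 peaks of 341 to 381 bases stood in 3 samples. Of the 3 genes that rose in KO, Hoxa11 had a start peak in WT at day 0 and KO at day 10, at a -log10 q of only 0.201 and 0.0531. Hoxb1 had one in WT at day 10 only (0.311), and Hoxb8 had none.

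**Figure D5:**
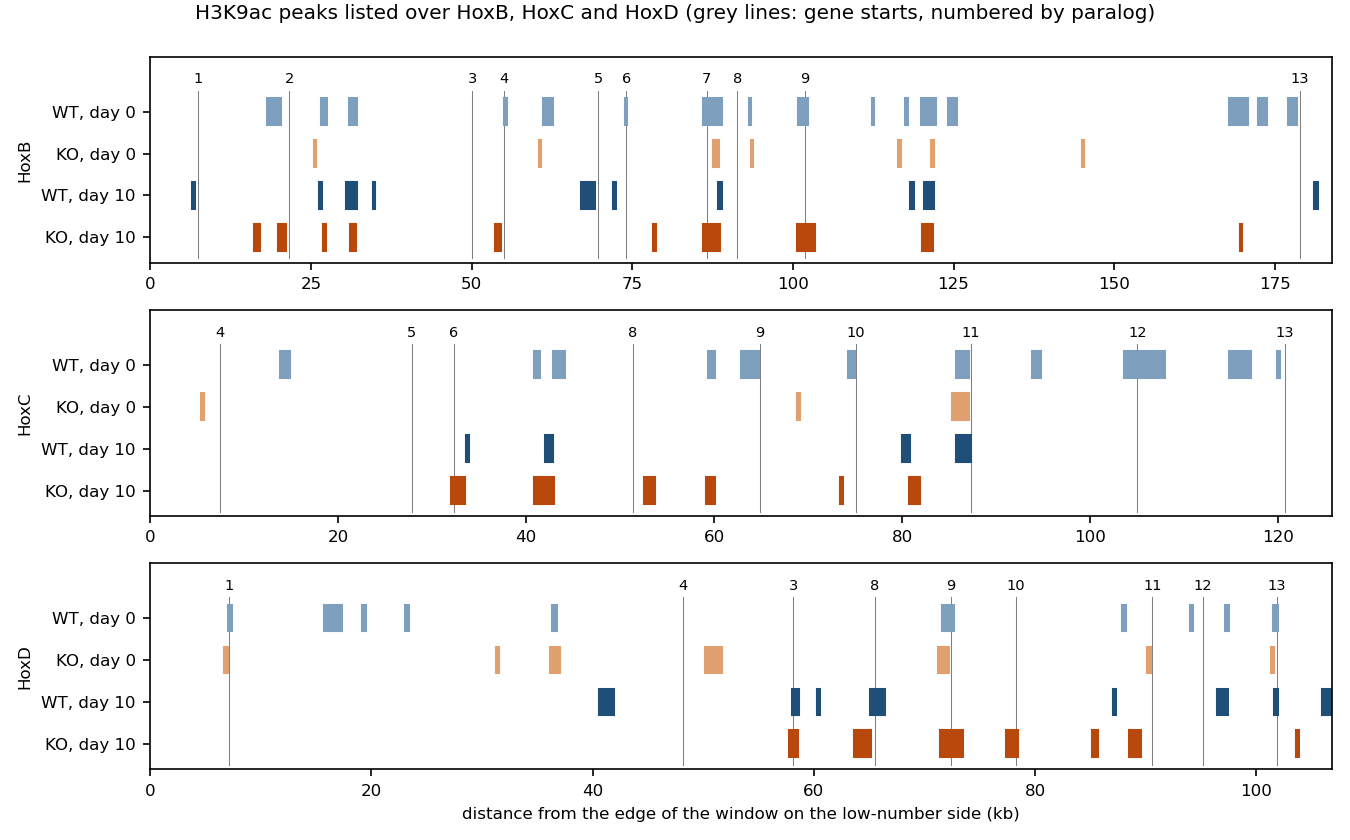
Bars are the H3K9ac peaks of each list over HoxB, HoxC and HoxD, 1 row per sample, drawn by distance in kb from the window edge on the side of the low paralog numbers; grey lines are gene starts. In HoxB all 4 rows hold a peak 18012 to 19502 bases before the Hoxb9 start, and all 4 hold one within 1820 bases of the Hoxb7 start.

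The level of Hox genes with and without a start peak was set side by side. At day 10 in KO the 14 genes with a peak had a median of 9.99 scaled reads per kb and the 25 without one 7.16; in WT the medians were 2.91 over 10 and 3.09 over 29. At day 0 they were 2.48 over 23 and 0.973 over 16 in WT, and 5.28 over 8 and 2.44 over 31 in KO. The ranges overlapped in all 4.

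The clusters differed in the cas share of the RNA reads that could be assigned to an allele, and the DNA genotype behind this was not tested. Over all 12 libraries the HoxD genes held 845 mus and 0 cas reads, which allows a cas share of up to 0.355% (3 reads of the total), HoxA held 589 mus and 5 cas reads (0.842%, Wilson 95% interval 0.360 to 1.96%) and HoxC 286 and 8 (2.72%, 1.39 to 5.28%). HoxB held 157 mus and 130 cas reads, 45.3% cas (39.6 to 51.1%). Intervals cover counting error only.

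Other genes within 2 Mb had 48.6% cas reads around HoxB, and 7.53%, 7.89% and 4.73% around HoxA, HoxC and HoxD. The rest of chromosomes 11, 6, 15 and 2 had 18.5%, 15.9%, 4.95% and 22.5%. HoxB thus was the only cluster whose alleles could be compared. Its cas share was 55.8% in WT (52 reads, 42.3 to 68.4%) and 42.4% in KO (125 reads, 34.1 to 51.2%) at day 0, and 37.9% in WT (29 reads, 22.7 to 56.0%) and 45.7% in KO (81 reads, 35.3 to 56.5%) at day 10, with intervals that overlap. Hoxb9, with 105 of the 287 allelic reads of HoxB, had 62 mus and 43 cas reads (41.0% cas, 32.03 to 50.5%), Hoxb1 20 and 14, Hoxb2 17 and 18 and Hoxb8 4 and 8.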

How the data were processed

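Per the submitters' processing notes, the tools were TopHat and HOMER for RNA and Novoalign and MACS2 for ChIP, on mm9; versions, strand, controls and placement of multiply mapped reads are not given in the sources used here. The authors deposited a signal per gene, reads scaled to a common total over the genomic span (exons and introns; length equals span in 99.48% of genes). The authors' table also holds log2 ratios and p-values of their own comparisons, whose test no header names. Allele-assigned reads (mus or cas) were deposited as whole-number counts per gene. The authors' peak lists, in broadPeak format, give fold enrichment (a ratio), -log10 p and -log10 q for each peak. They also carry a display score, deposited by the authors and not used here.

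Values above 1 in at least 3 libraries (20624 genes) were tested as log2(value + 1) with limma 3.58.1 (trend, robust; R 4.3.3), all 12 libraries in 1 fit, Benjamini-Hochberg threshold 0.05; fold changes on this scale understate low genes. Whole reads were recovered (99.55 to 99.98% of values whole within 0.006) and tested with edgeR 4.0.16 (quasi-likelihood, TMM) and DESeq2 1.42.0 as alternatives. Python 3.11.15 (numpy 2.4.6, pandas 2.3.3, scipy 1.17.1, matplotlib 3.10.9) gave descriptions and figures. The limma and edgeR fits were tested on simulated data.

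The rule named members with an adjusted p under 0.05 in a comparison or, between the lines and for the interaction, an unadjusted p under 0.05 with a mean of at least 5 scaled reads in a group; the highest member per cluster and kb; up to 4 called genes of each other list; and the 5 genes most like the Hox sum. The members and lists were chosen with earlier results of these data known. Alternatives were pseudocounts, filters, scalings, tools, compared groups only, a replicate block, a depth term and left-out libraries; the 9 libraries of lower depth were added after seeing the data. Results for 1 Hox gene and 1 cofactor gene are not reported here. The H3K9me2 samples were not analysed here, and 2 input samples have conflicting day labels. Promoter and miRNA sequences are from RefSeq (GRCm38.p6).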

Additional observations from a re-analysis of the deposited data

How the results depend on the processing

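Adjusted counts depended on the setting, and signs mostly did not. The 3 Hox genes called between days in KO became 1 with a pseudocount of 0.1, 6 with TMM, 5 with RLE, 13 with DESeq2 and 5 with a depth term. They became 10 with only the compared groups in the fit (8 higher, 2 lower) and 9 without both libraries with background reads (7 higher, 2 lower). When single libraries were left out they numbered 0 to 8. Calls over all genes moved with the setting too, from 502 higher and 1332 lower of 20624 in the main fit. They were 783 and 3382 of 19374 with only the compared groups, and 990 and 4419 of 19942 without both background libraries. With TMM they were 735 and 853 of 20624, with RLE 785 and 700 of 20586, and with DESeq2 1383 and 1895 of 22589. The 0 of WT became 1 with a pseudocount of 0.1, 1 with no filter, 5 with DESeq2 and 3 with a depth term. It became 2 without both day 0 libraries numbered 1, 2 without both libraries with background reads and 0 to 1 with single libraries left out. Over all genes the WT calls were 417 higher and 494 lower of 20624 in the main fit and 1038 and 802 of 22589 with DESeq2. They were 676 and 838 of 20624 with a depth term and 797 and 1372 of 20178 without both day 0 libraries numbered 1. Without both background libraries they were 651 and 1490 of 19942. The 0 between the lines at day 10 became 1 with DESeq2. With edgeR, which kept 18 Hox genes, those above 0 numbered 16 between the lines at day 0, 18 at day 10, 15 and 15 over the days in WT and KO, and 13 for the interaction. The median of the interaction, 0.34, was -0.0762 without WT replicate 1 of day 10, with a range of -0.0762 to 0.87 over single libraries left out. Where the construction does not show it, the cause was not tested. TMM moved the median of all genes in the KO day change from -0.68 to -0.40 and RLE to -0.41, while the Hox median went from 1.17 to 1.44 under both.

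Summed per kb, HoxD made 38.4% of Hox reads in KO at day 0 against 33.7%, and HoxB 14.99% against 13.7% in WT at day 10. At a -log10 q of at least 5 the share of Hox starts with a peak was 0 in all 4 samples.

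All libraries come from 1 cell line, and the labels give the numbers 1 to 3 also in a field called donor. Same-numbered libraries did not deviate together throughout (r from -0.578 to 0.579, 5 of 18 pairs above 0.1), and in 11 of 36 cases the best match had the same number. The replicate block left the adjusted counts at 0, 0, 0, 3 and 0 and changed the unadjusted count between the lines at day 10 from 7 to 11. Over all genes that count of higher genes went from 424 to 440 of 20624. Under the block Hoxb1 missed the threshold (limma adjusted p = 0.0651).

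Low depth limits genes under about 10 scaled reads, which in 9 libraries rest on at most 5 reads.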
